A study of Mus musculus with 33 samples.

Results

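The mRNAs of 9 Toll-like receptors (*Tlr1*, *Tlr2*, *Tlr3*, *Tlr4*, *Tlr5*, *Tlr7*, *Tlr8*, *Tlr9* and *Tlr13*) and of *Cd14* were followed across macs with and without deletion of the transcription factor *Zeb2*. These 10 genes were taken by symbol from the 24421 genes counted in each of 33 bulk RNA-seq samples, and all 10 were present in every count table. The rule used symbols only, and the genes were chosen with earlier results of these data known. In normal cells *Tlr1* and *Tlr3* were higher in the liver mac and *Tlr2* and *Tlr5* in the lung mac. In CD11b+ AMs of mice with the deletion *Tlr5*, *Tlr13* and *Cd14* were higher and *Tlr8* lower than in AMs of mice without it. The change of *Cd14* differed between liver and lung, where the *cre* transgenes also differ.

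All mice carried floxed *Zeb2* alleles (*Zeb2* fl/fl) and were 6 to 8 weeks old. CRE- KCs (n = 6) and CRE- AMs (n = 5) came from *Zeb2* fl/fl mice without a *cre* transgene. KCs, the resident macs of the liver, were also taken as Tim4+ KCs (n = 6) and Tim4- KCs (n = 6) from mice whose floxed *Zeb2* was combined with *Clec4f-cre*. AMs, the macs of the lung alveoli, were likewise taken as CD11b- AMs (n = 5) and CD11b+ AMs (n = 5) from mice that carried *Itgax-cre*. *Clec4f-cre* recombines in KCs and also marks a few B cells, whereas *Itgax-cre* is active in AMs and in other CD11c+ cells. The sorted CRE+ cells can include macs that kept 1 intact *Zeb2* allele, and the recombined gene still gives an mRNA with its 3' end. The labels do not say whether the replicates of a group are separate animals, so the p-values measure the spread between these samples.

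*Zeb2* counts were therefore only a partial check of the labels. *Zeb2* ranged from 230 to 338 CPM (counts scaled to the reads of a library that fell on genes, with TMM factors) in CRE- KCs, from 145 to 209.7 in Tim4+ KCs and from 148 to 192 in Tim4- KCs. It ranged from 170.1 to 208 CPM in CRE- AMs, from 85.0 to 114 in CD11b- AMs and from 50.7 to 70.2 in CD11b+ AMs, so no CRE+ sample reached the CRE- range of its tissue. *Timd4*, the gene of Tim4, was at most 8.19 CPM in Tim4- KCs and at least 281 in Tim4+ KCs, and *Itgam*, the gene of CD11b, was at most 22.7 CPM in CD11b- AMs and at least 235 in CD11b+ AMs. Markers of KCs (7 genes) summed to at least 9476 CPM in every KC sample and at most 27.7 in every AM sample, and markers of AMs (8 genes) to at least 19873 CPM in AMs and at most 2066 in KCs. Between 9837240 and 24332306 reads were counted on genes per sample, with the lowest total in Tim4- KC replicate 1. Y-linked counts were found in replicates 5 and 6 of each KC group and in no AM group above 1 count, so the KC samples were from both sexes and the AM samples were not.

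Toll-like receptors bind conserved microbial molecules. TLR1, TLR2, TLR4 and TLR5 act at the cell surface, where TLR2 binds lipopeptides as a pair with TLR1 or TLR6, TLR4 with its co-receptor MD-2 binds lipopolysaccharide handed over by CD14, and TLR5 binds flagellin. TLR3, TLR7, TLR8, TLR9 and TLR13 act in endosomes and bind nucleic acids: double-stranded RNA (TLR3), single-stranded RNA and its breakdown products (TLR7 and TLR8), DNA rich in unmethylated CpG (TLR9) and bacterial ribosomal RNA (TLR13). The adaptor MyD88 signals for all of them except TLR3, which uses TRIF, and the chaperone UNC93B1 carries the endosomal receptors out of the endoplasmic reticulum. KCs meet microbial products that arrive from the gut in portal blood, and AMs meet those that are inhaled.

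*Tlr1* and *Tlr6* lie on chromosome 5 of GRCm38 (64924679 to 64933563 and 64952031 to 64960097, both on the minus strand), and part of their coding sequence is identical. It is printed here because reads from it cannot be told apart between both genes. The longest identical run, 229 bases, lies in the coding exon of *Tlr1* at chr5:64925537-64925765 and in that of *Tlr6* at chr5:64953828-64954056, minus strand, and is given whole, from GENCODE M21.
Tlr1 and Tlr6: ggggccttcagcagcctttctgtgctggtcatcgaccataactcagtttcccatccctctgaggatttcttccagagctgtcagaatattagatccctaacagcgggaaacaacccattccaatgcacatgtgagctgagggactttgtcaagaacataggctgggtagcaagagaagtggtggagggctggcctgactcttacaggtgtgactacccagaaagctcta
Of all different 35-base stretches of the *Tlr1* transcripts, 17.1% also occur in *Tlr6*. No other member shared a stretch of this length with another Toll-like receptor. *Tlr3* shares 381 exonic bases with an antisense gene, *Gm45542*, and since the strand setting of the counting is not given in the sources used here, counts of *Tlr3* may include antisense reads.

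ZEB2 is a repressor known to bind CACCT motifs, of which CACCTG is a common extended form. The sequences upstream of the members whose mRNA changed in CRE+ cells and for which RefSeq gives a start are therefore shown. They are from GRCm38.p6, 5' to 3' on the strand of the gene. Each stops before the first annotated exon, with CACCT or its reverse complement AGGTG in capitals. The 4 stretches are chr5:64933564-64933808 for *Tlr1* (minus strand), chr1:182954538-182954787 for *Tlr5* (plus strand), chrX:167264330-167264579 for *Tlr8* (minus strand) and chrX:106143025-106143203 for *Tlr13* (plus strand).
Tlr1: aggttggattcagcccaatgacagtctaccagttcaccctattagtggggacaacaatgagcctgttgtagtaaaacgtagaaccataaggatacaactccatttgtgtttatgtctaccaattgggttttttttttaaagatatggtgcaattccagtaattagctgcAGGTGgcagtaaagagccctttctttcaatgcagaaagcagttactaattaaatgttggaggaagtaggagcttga
Tlr5: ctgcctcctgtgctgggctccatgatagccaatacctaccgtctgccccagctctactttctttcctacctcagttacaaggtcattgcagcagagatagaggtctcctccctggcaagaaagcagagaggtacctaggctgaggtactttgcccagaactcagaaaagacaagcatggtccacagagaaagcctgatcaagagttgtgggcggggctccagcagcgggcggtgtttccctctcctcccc
Tlr8: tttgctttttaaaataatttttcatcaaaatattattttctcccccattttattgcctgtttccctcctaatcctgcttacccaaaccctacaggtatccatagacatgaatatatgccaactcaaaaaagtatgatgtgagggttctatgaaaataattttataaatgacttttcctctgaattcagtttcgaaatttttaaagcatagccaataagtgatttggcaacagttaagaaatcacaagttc
Tlr13: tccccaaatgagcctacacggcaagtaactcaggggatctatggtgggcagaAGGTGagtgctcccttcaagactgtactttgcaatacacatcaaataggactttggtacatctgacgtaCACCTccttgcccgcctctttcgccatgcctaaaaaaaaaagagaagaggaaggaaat
*Tlr13* held 2 matches, beginning 198 and 129 bases before its RefSeq start, and *Tlr1* held 1, while *Tlr5* and *Tlr8* held none in these windows. CACCT on either strand occurred in 46.0% of the 32851 RefSeq windows of 250 bases before a start and CACCTG in 17.2%, and among the members' 8 windows (7 genes, *Tlr1* with 2 starts) in 4 and 3. These matches describe the letters only.

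**Figure D1:**
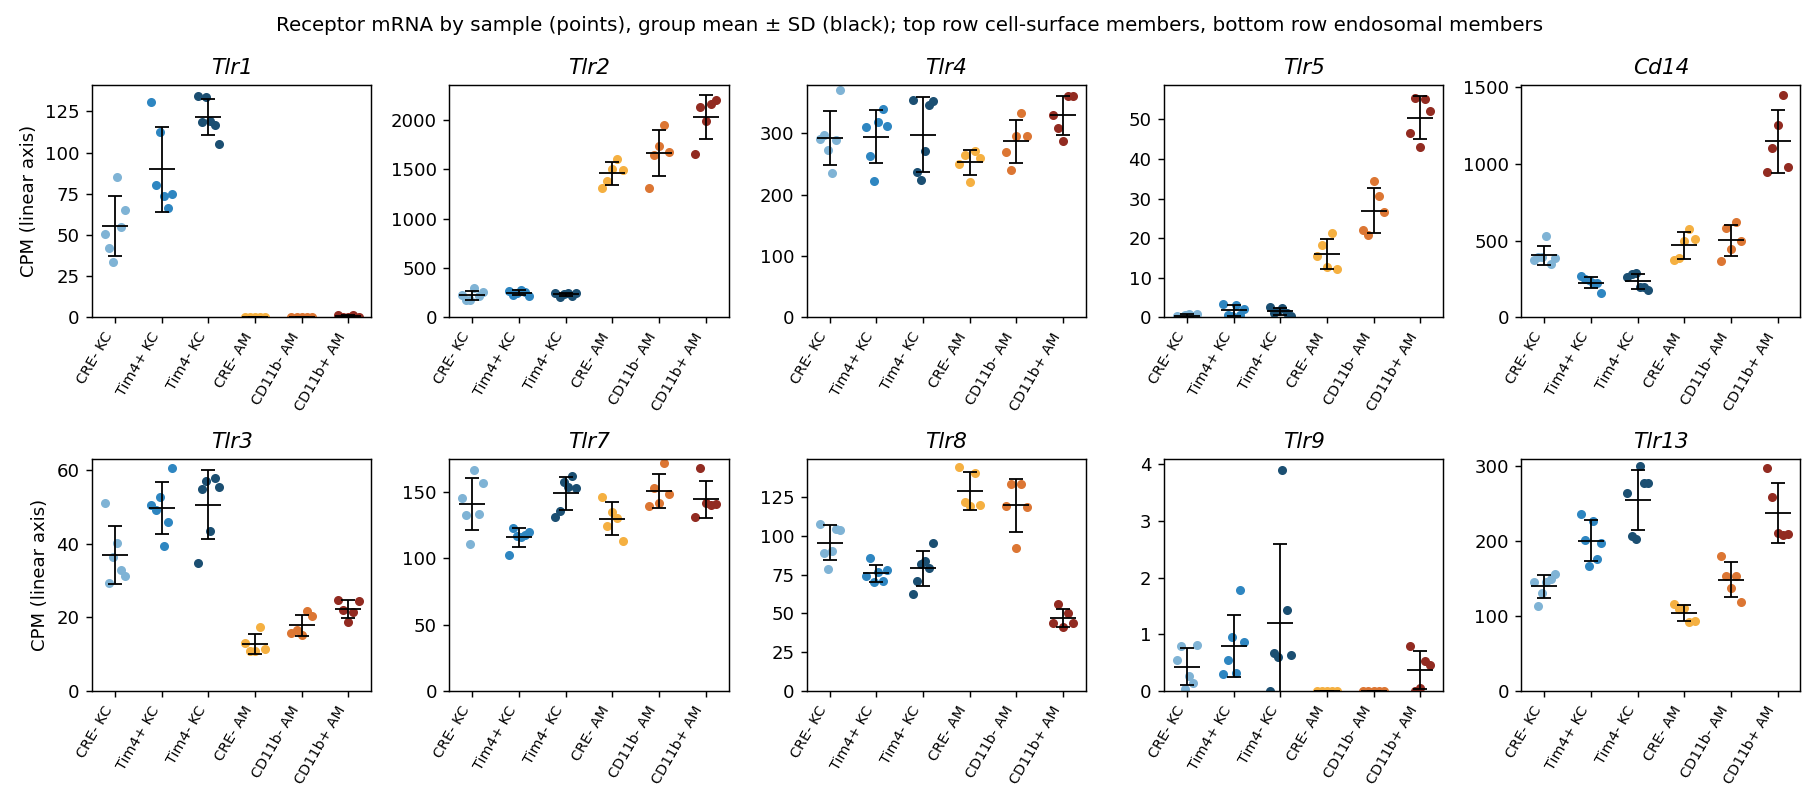
CPM of each of the 10 members (linear axes from 0, a panel per gene) in every sample of the 6 groups, with points for samples and black bars for the group mean ± SD. *Tlr2* and *Tlr5* were high in the AM groups, *Tlr1* was at most 1.65 CPM in AMs, and *Cd14* and *Tlr13* were highest in CD11b+ AMs and Tim4- KCs, respectively.

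The first comparison asked how the receptor mRNAs of normal KCs differ from those of normal AMs, in CRE- cells (12145 genes tested with a quasi-likelihood test in edgeR, with a call at an adjusted p under 0.05 by Benjamini and Hochberg and a change of more than 1 on the log2 scale). *Tlr1* and *Tlr3* were higher and *Tlr2* and *Tlr5* lower in CRE- KCs, 2 members each way of 9 tested, where 20.9% of all genes tested were higher and 12.4% lower. The median log2 fold change was 0.14 over the 9 members and 0.03 over all genes tested. Tissue, digestion and sort differ together between KCs and AMs and cannot be told apart, and in bulk samples fewer cells of a type and less RNA per cell cannot be told apart either.

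*Tlr1*, the partner of TLR2 for triacylated lipopeptides, had 33.5 CPM in the lowest CRE- KC sample, 52.5 at the median and 85.4 in the highest. In CRE- AMs it had no count in 4 samples and 4 counts, 0.185 CPM, in replicate 3. The gene was thus read in every KC sample and all but missing from AMs. Over the groups, 6976 counts stood against 4, a ratio of 1433 (95% exact interval 559 to 5259, counting error only), and the call had an adjusted p of 1.68e-10.

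*Tlr2* had 1307, 1382, 1505, 1607 and 1491 CPM in the 5 CRE- AM samples and between 177 and 295 CPM in CRE- KCs, with a median of 222. Each AM sample lay above each KC sample. The log2 fold change of KCs over AMs was -2.67 (SE 0.12, adjusted p = 1.39e-10), and *Tlr2*, on chromosome 3 from 83836272 to 83841767, was the member with the highest level per kb of exon in CRE- AMs (484 ± 38.6 CPM per kb, SD, n = 5).

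*Tlr5*, on chromosome 1 from 182954788 to 182976044, had 15.5, 18.2, 12.8, 21.2 and 12.2 CPM in CRE- AMs. In CRE- KCs it ran from 0 to 0.783 CPM with a median of 0.494, between 0 and 18 counts a sample. The groups did not overlap, and the log2 fold change was -5.02 (SE 0.46, adjusted p = 2.46e-07).

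*Tlr4*, the receptor for lipopolysaccharide (chromosome 4, 66827584 to 66930284), had 249, 265, 219.9, 271 and 259 CPM in CRE- AMs and from 235 to 371 in CRE- KCs with a median of 289.6. The ranges overlapped, and the log2 fold change of 0.24 (SE 0.10, adjusted p = 0.0477) was far under the 2-fold limit. *Cd14* (chromosome 18, 36725067 to 36726798), which binds lipopolysaccharide and passes it on to TLR4, had 371, 389, 498, 576 and 512 CPM in CRE- AMs and from 351 to 528 in CRE- KCs with a median of 389. Its log2 fold change of -0.19 (SE 0.12) did not pass (adjusted p = 0.204).

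Among the endosomal receptors, *Tlr3* (chromosome 8, 45395665 to 45411080) had 29.4 to 50.9 CPM in CRE- KCs, median 34.7, and 13.1, 10.9, 10.9, 17.5 and 11.4 CPM in CRE- AMs. All KC samples were above all AM samples, with a log2 change of 1.56 (SE 0.17, adjusted p = 1.61e-06). *Tlr8* (chromosome X, 167242696 to 167264329) was 78.9 to 108 CPM in CRE- KCs and 144, 122, 119, 140.1 and 119.6 in CRE- AMs, a log2 change of -0.40 (SE 0.09, adjusted p = 0.00136). *Tlr13* (chromosome X, 106143204 to 106160493) was 113 to 156 CPM in CRE- KCs and 116, 109, 111, 92.6 and 93.5 in CRE- AMs, a log2 change of 0.45 (SE 0.09, adjusted p = 0.000727). Both differences were smaller than 2-fold, and only that of *Tlr8* left the groups apart.

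*Tlr7* (chromosome X, 167304929 to 167330558) had 111 to 167 CPM in CRE- KCs and 146, 124, 135, 131 and 113 CPM in CRE- AMs, and the log2 fold change of 0.14 (SE 0.10) did not pass (adjusted p = 0.223). *Tlr9* (chromosome 9, 106222598 to 106226883) did not pass the filter on low counts. It had between 1 and 19 counts in the CRE- KC samples, 57 in all, and none in any CRE- AM sample, so that it was at least 15.6-fold higher in CRE- KCs when the AM group is set to 3 counts in all, the smallest amount taken as detectable. Neither tissue carried much of it, at most 0.820 CPM in a CRE- KC sample.

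**Figure D2:**
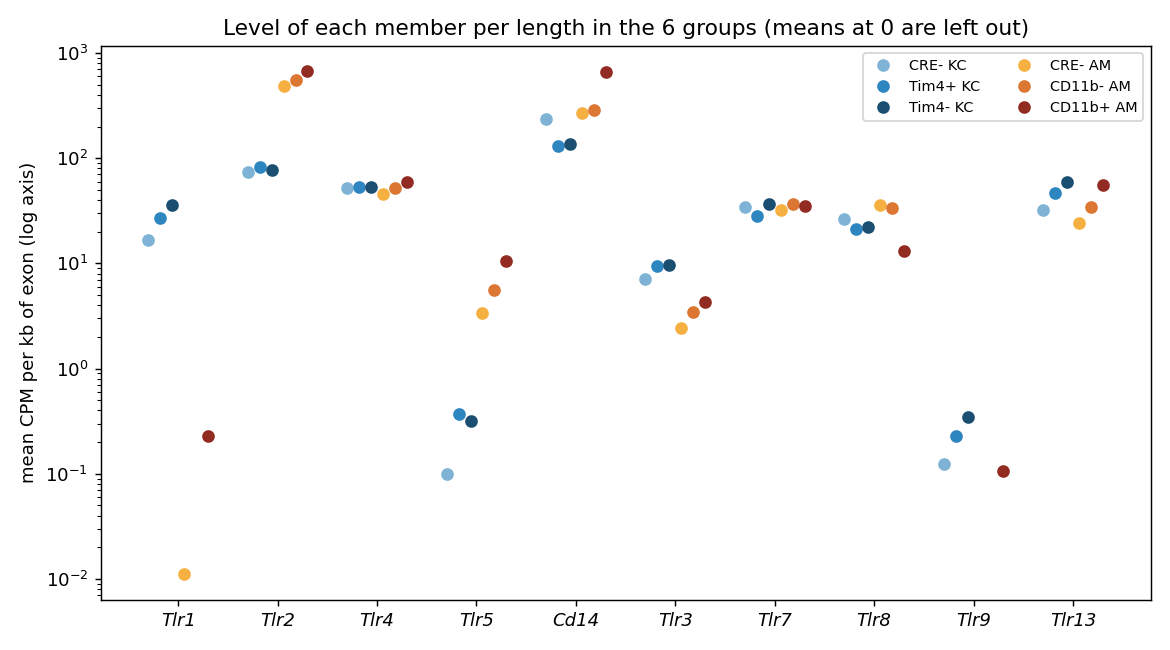
Mean CPM per kb of merged exon length (log axis) of each member in the 6 groups, which allows levels to be compared between genes; means at 0 are left out. *Cd14* and *Tlr2* stood above the other members in every group, *Tlr4*, *Tlr7*, *Tlr8* and *Tlr13* lay between 13.1 and 59.3 CPM per kb, and *Tlr9* was at most 0.348.

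Per kb of exon, the order of the members in CRE- KCs was *Cd14* (233 ± 36.5 CPM per kb, SD, n = 6), *Tlr2* (74.7), *Tlr4* (52.6), *Tlr7* (34.5), *Tlr13* (32.5), *Tlr8* (26.6), *Tlr1* (16.5), *Tlr3* (7.07), *Tlr9* (0.125) and *Tlr5* (0.101). In CRE- AMs it was *Tlr2* (484), *Cd14* (271 ± 50.1, SD, n = 5), *Tlr4* (45.5), *Tlr8* (36.0), *Tlr7* (31.8), *Tlr13* (24.3), *Tlr5* (3.34), *Tlr3* (2.45) and *Tlr1* (0.0110), with *Tlr9* at 0. Across the 6 groups *Tlr4* and *Tlr7* were the flattest members, their highest group mean being 1.30 times the lowest in each, and no neighbouring groups in the order of either gene were apart. *Tlr2* spanned 9.002-fold, *Cd14* 5.04-fold, *Tlr3* 3.96-fold, *Tlr8* 2.74-fold and *Tlr13* 2.43-fold.

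In the order of groups, *Tlr1* went from Tim4- KCs through Tim4+ KCs to CRE- KCs and then, with a gap, to the AM groups, and *Tlr3* from the KC groups (Tim4- highest) with a gap to CD11b+, CD11b- and CRE- AMs. *Tlr2* ran from CD11b+ through CD11b- to CRE- AMs and, with a gap, to the KC groups. *Tlr5* ran from CD11b+ AMs, apart from the rest, to CD11b- and CRE- AMs and, with a further gap, to the KCs. For *Tlr13* each pair of neighbours in the order Tim4- KC, CD11b+ AM, Tim4+ KC, CD11b- AM, CRE- KC and CRE- AM overlapped. For *Cd14* the order was CD11b+ AM, apart from the rest, then CD11b- AM, CRE- AM and CRE- KC, which overlapped in turn, and then, apart from these, Tim4- and Tim4+ KCs. For *Tlr8* CD11b+ AMs stood apart at the lower end. These orders are those of the group means, and the gaps are between the lowest sample of one group and the highest of the next.

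Partners of the receptors also differed between normal KCs and AMs. In the list of 13 co-receptors, chaperones and other Toll-like receptors, 7 were higher in CRE- KCs and 0 lower with edgeR, where 20.9% of all genes tested were higher and 12.4% lower. The list median log2 fold change was 1.73, and 12 had an unadjusted p under 0.05 and both limma-voom and DESeq2 called 7. *Ly96*, which encodes MD-2, was 39.9 to 51.6 CPM in CRE- KCs and 10.3 to 12.03 in CRE- AMs (log2 fold change 2.06, SE 0.10, adjusted p = 2e-10). *Ly86* and *Cd180*, whose products MD-1 and RP105 form a TLR4-like complex, had log2 fold changes of 4.03 (SE 0.08) and 3.02 (SE 0.15). *Lbp*, the lipopolysaccharide-binding protein, had 34.4 to 69.1 CPM in CRE- KCs and at most 0.807 in CRE- AMs, and *Unc93b1* had 1696 to 2112 CPM against 554 to 642 (log2 fold change 1.73, SE 0.07, adjusted p = 3.09e-11).

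*Tlr12*, a mouse receptor for profilin of protozoa, was read at 156 to 267 CPM in CRE- KCs and from a single count over all CRE- AM samples, and *Tlr11*, its relative, at 3.38 to 9.23 CPM against 4 counts in all. *Tlr6* had 22.8 to 26.1 CPM in CRE- KCs and 13.3 to 16.7 in CRE- AMs (log2 fold change 0.76, SE 0.10, adjusted p = 1.32e-05), under the 2-fold limit, so that *Tlr6* was read in AMs where *Tlr1* was not. *Cd36*, a scavenger receptor that presents lipids to TLR2, and *Myd88* had log2 fold changes of -0.75 (SE 0.23, adjusted p = 0.0113) and -0.69 (SE 0.08, adjusted p = 2.25e-06). *Cnpy3* and *Hsp90b1*, chaperones of the receptors, had log2 fold changes of 0.27 (SE 0.07) and 0.23 (SE 0.10).

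**Figure D3:**
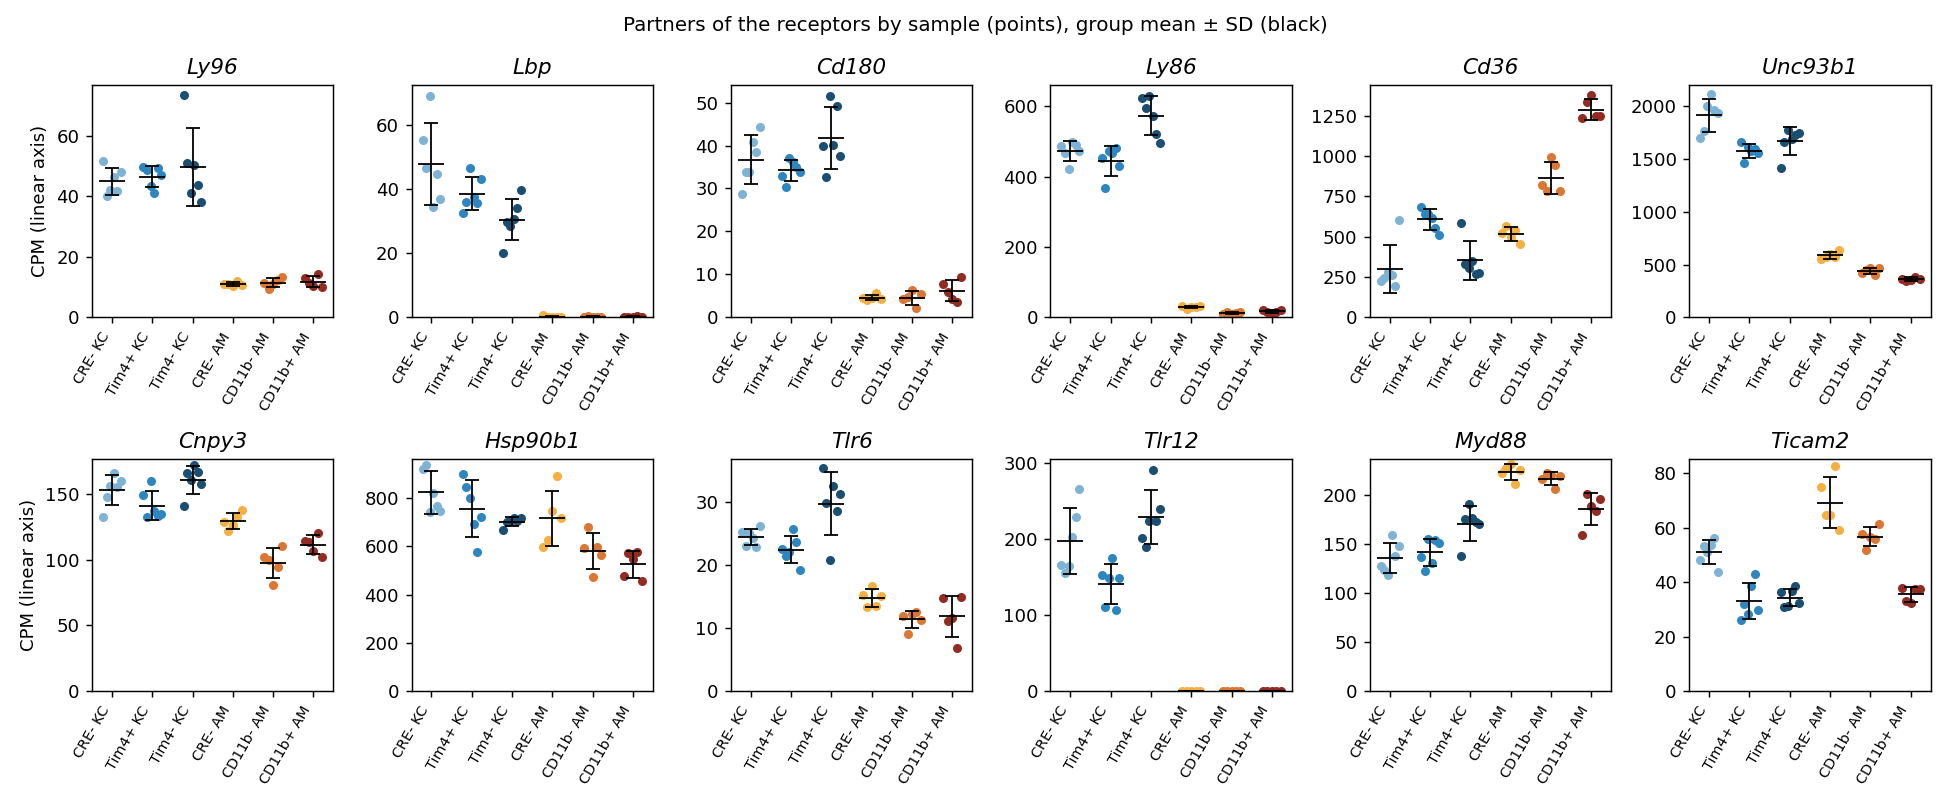
CPM of 12 partners of the receptors (linear axes from 0) in every sample, with black bars for the group mean ± SD. *Ly96*, *Lbp*, *Cd180*, *Ly86*, *Unc93b1* and *Tlr12* were higher in each KC sample than in each AM sample, and *Cd36* rose in CD11b+ AMs.

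The next comparisons asked how the receptors differed between CRE+ and CRE- KCs (12500 genes tested over the 18 KC samples). The labels give no split by Tim4 for CRE- KCs, where *Timd4* was 664 to 759 CPM. The deletion and the sort on Tim4 therefore cannot be told apart in them. In Tim4+ KCs no member passed both limits, where 1.94% of all genes tested were higher and 0.376% lower than in CRE- KCs. With edgeR, 7 of the 10 members had an unadjusted p under 0.05 and 5 an adjusted p under 0.05, and limma-voom and DESeq2 also called 0. Without a fold limit, 761 of the 12500 genes tested had an adjusted p under 0.05. The share of all genes under the unadjusted limit is not given, here or in the other comparisons, so those counts have no background. The median log2 fold change was 0.27 over the members and 0.00 over all genes tested.

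*Cd14* showed the clearest difference in Tim4+ KCs, with 157 to 267 CPM and a median of 236 against 351 to 528 CPM in CRE- KCs. The groups did not overlap, and the log2 fold change of -0.85 (SE 0.14, adjusted p = 0.000395) was just short of the 2-fold limit. *Tlr13* had 167 to 236 CPM against 113 to 156, again without overlap, with a log2 change of 0.50 (SE 0.11, adjusted p = 0.00769). *Tlr1* was 0.68 (SE 0.19) higher on the log2 scale, and *Tlr8* and *Tlr7* were -0.35 (SE 0.10) and -0.30 (SE 0.09), with adjusted p-values of 0.0341, 0.032 and 0.0455 and overlapping ranges.

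In Tim4- KCs *Tlr1* rose, the 1 member that passed, where 3.43% of all genes tested were higher and 5.39% lower than in CRE- KCs. *Tlr1* had 105 to 134 CPM with a median of 119 in Tim4- KCs and 33.5 to 85.4 CPM in CRE- KCs. All Tim4- samples lay above all CRE- samples, with a log2 change of 1.12 (SE 0.19, adjusted p = 0.000186). *Tlr6*, with which *Tlr1* shares sequence, had a log2 change of 0.27 (SE 0.11, adjusted p = 0.0904).

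Below the 2-fold limit, *Tlr13* had 203 to 299 CPM in Tim4- KCs with a median of 270.4, above every CRE- sample (log2 fold change 0.85, SE 0.11, adjusted p = 1.24e-05). *Cd14* had 179.7 to 292 CPM with a median of 229, below every CRE- sample (log2 fold change -0.79, SE 0.14, adjusted p = 0.000234). *Tlr3* and *Tlr8* had log2 fold changes of 0.44 (SE 0.14, adjusted p = 0.0275) and -0.29 (SE 0.10, adjusted p = 0.033), and their ranges overlapped with those of CRE- KCs. The median log2 fold change was 0.25 over the 10 members and -0.03 over all genes tested.

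*Tlr2*, *Tlr4* and *Tlr7* had log2 fold changes between 0.01 and 0.07 in Tim4- KCs, with adjusted p-values of at least 0.63. *Tlr5* had 7, 0, 14, 15, 7 and 18 counts in CRE- KCs, and 9 to 72 counts in Tim4+ and 7 to 42 in Tim4- KCs. Its log2 fold changes of 1.86 (SE 0.71, adjusted p = 0.15) and 1.63 (SE 0.71, adjusted p = 0.0989) rested on these few counts and did not pass, although both passed when all 33 samples shared the fit and that in Tim4- KCs also with DESeq2 (adjusted p = 0.0481). *Tlr9* had 57 counts over the CRE- KC samples, 103 over Tim4+ and 146 over Tim4- KCs, of which Tim4- KC replicate 4 gave 72, and it did not pass in either group.

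Tim4- and Tim4+ KCs of the same genotype were compared next, and no member passed both limits, where 0.44% of all genes tested were higher and 5.01% lower in Tim4- KCs. With edgeR, 3 members had an unadjusted p under 0.05, and limma-voom and DESeq2 also called 0. *Tlr7* had 131 to 162 CPM in Tim4- KCs and 102 to 123 in Tim4+ KCs without overlap, a log2 change of 0.36 (SE 0.09, adjusted p = 0.00849). *Tlr13* had a log2 change of 0.35 (SE 0.11, adjusted p = 0.0499), and *Cd14* of 0.06 (SE 0.14, adjusted p = 0.845). The median over the members was 0.06, beside 0.01 over all genes.

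Markers of other cells moved with these comparisons. The summed level of 10 liver endothelial markers was 648 to 2211 CPM in CRE- KCs, 1290.0 to 3843 in Tim4+ KCs and 421 to 611 in Tim4- KCs, with 9 of the 10 lower in Tim4- than in CRE- KCs. None of the 10 passed in Tim4+ KCs, where the sums overlapped those of CRE- KCs. The 7 monocyte markers summed to 83.8 to 309 CPM in CRE- KCs, 112 to 370.3 in Tim4+ and 359.5 to 867 in Tim4- KCs, led by *Ccr2*, *Cx3cr1* and *Plac8*, with 2 higher in each CRE+ group and *Vcan* at 0 in both. The 7 B cell markers summed to 50.03 to 98.9 CPM in CRE- KCs, 105 to 147 in Tim4+ and 156 to 292 in Tim4- KCs. Of the 6 tested, 1 rose and 1 fell in Tim4+ KCs, and 1 rose and 0 fell in Tim4- KCs. The list includes *Ms4a1*, the gene of CD20, which the authors found on KCs that had lost *Zeb2*. The 4 eosinophil markers summed to 42.7 to 60.7 CPM in CRE- KCs, 109.5 to 589 in Tim4+ and 141 to 678 in Tim4- KCs, nearly all of it *Ccr3*, the 1 marker tested, which rose in both CRE+ groups. *Prg2* had no count in CRE- KCs, 5 counts over Tim4+ and 4 over Tim4- KCs, *Prg3* had 7 counts in Tim4+ KCs and none in the other KC groups, and *Epx* had none in any KC sample. Of the 6 conventional dendritic cell markers tested, 0 rose in Tim4+ and 3 in Tim4- KCs. They summed to 16.5 to 25.8 CPM in CRE-, 25.1 to 44.4 in Tim4+ and 14.7 to 44.1 in Tim4- KCs. Of the 7 T and NK cell markers tested, 0 and 2 rose, and of the 3 plasmacytoid dendritic cell markers, 1 and 1. In Tim4- KCs 1 of 3 neutrophil markers tested rose and 1 of 9 hepatocyte markers fell. The part of these cells in the values of *Tlr1*, *Tlr13* and *Cd14* was not tested.

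In the lung (11573 genes tested over the 15 AM samples), no member passed both limits in CD11b- AMs against CRE- AMs. Of all genes tested, 3.98% were higher and 2.51% lower. The labels give no split by CD11b for CRE- AMs, where *Itgam* was at most 3.42 CPM. The deletion and the sort on CD11b therefore cannot be told apart in comparisons with CRE- AMs. *Tlr1* and *Tlr9* did not pass the filter on low counts in any AM comparison, so 8 members were tested. With edgeR, 6 of them had an unadjusted p under 0.05, and limma-voom and DESeq2 also called 0. *Tlr5* had 22.1, 20.8, 34.4, 30.7 and 26.7 CPM, a log2 change of 0.75 (SE 0.16, adjusted p = 0.00156), with its lowest value just inside the CRE- range. *Tlr13* had 180.04, 154, 137, 154 and 119 CPM, each above each CRE- AM sample, a log2 change of 0.51 (SE 0.12, adjusted p = 0.0029). *Tlr3* had a log2 change of 0.49 (SE 0.15, adjusted p = 0.0214), and *Cd14* one of 0.10 (SE 0.14, adjusted p = 0.682). The median was 0.20 over the 8 members and 0.00 over all genes tested.

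In CD11b+ AMs 3 of the 8 members tested rose and 1 fell relative to CRE- AMs, where 9.57% of all genes tested were higher and 5.68% lower. The median log2 fold change was 0.63 over the 8 members and -0.01 over all genes tested. *Tlr5* had 46.5, 55.3, 43.0, 55.3 and 52.0 CPM, each far above the highest CRE- AM sample. Its log2 fold change was 1.64 (SE 0.16, adjusted p = 5.77e-08).

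*Cd14* had 949.8, 1105, 1251, 1449 and 979 CPM in CD11b+ AMs and at most 576 in CRE- AMs. The groups were apart, with a log2 change of 1.28 (SE 0.14, adjusted p = 4.9e-07). *Tlr13* had 298, 258, 210.4, 209 and 210.02 CPM, each above the CRE- maximum of 116, with a log2 change of 1.17 (SE 0.12, adjusted p = 8.32e-08).

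*Tlr8* was the member that fell. It had 44.0, 55.9, 41.1, 50.3 and 43.9 CPM in CD11b+ AMs and at least 119 in CRE- AMs, a log2 change of -1.47 (SE 0.10, adjusted p = 6.57e-10). Its close relative and chromosomal neighbour *Tlr7* had 132, 168, 142, 140.1 and 141 CPM, and a log2 change of 0.14 (SE 0.08, adjusted p = 0.173). Replicate 2, at 168 CPM, lay above the CRE- range of 113 to 146 and the others lay within it. With TMM factors, *Tlr2*, *Tlr3* and *Tlr4* were above the CRE- range in every CD11b+ sample by less than 2-fold. Their log2 fold changes were 0.46 (SE 0.09), 0.79 (SE 0.15) and 0.37 (SE 0.09), with adjusted p-values of 0.000313, 0.000229 and 0.00151. This gap depended on the TMM factors, which were 0.869 to 0.903 in CD11b+ AMs. With plain library sizes the sample ranges of *Tlr2*, *Tlr3* and *Tlr4* overlapped. Their group means stayed higher in CD11b+ than in CRE- AMs, at 1798.5 against 1481.4, 19.725 against 12.96 and 291.97 against 256.82 CPM.

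*Tlr1* and *Tlr9* had a few counts in CD11b+ AMs. *Tlr1* had 25, 7, 0, 31 and 5 counts, 68 in all, against 4 in CRE- AMs, a ratio of 19.6 (95% exact interval 7.30 to 73.9, counting error only), and the sample ranges overlapped. *Tlr9* had 13, 0, 1, 10 and 8 counts against 0, at least 12.3-fold higher over 3 counts in the CRE- AM group.

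Relative to CD11b- AMs, *Cd14* rose and *Tlr8* fell in CD11b+ AMs, 1 member each way, where 6.85% of all genes tested were higher and 3.3% lower. *Cd14* had a log2 change of 1.18 (SE 0.14, adjusted p = 2.78e-06) and *Tlr8* of -1.36 (SE 0.10, adjusted p = 6.78e-09), with no overlap between the groups. *Tlr5* and *Tlr13* were also apart, at 0.89 (SE 0.16, adjusted p = 0.000156) and 0.66 (SE 0.12, adjusted p = 0.000153), under the 2-fold limit. The median was 0.29 over the 8 members and 0.02 over all genes.

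**Figure D4:**
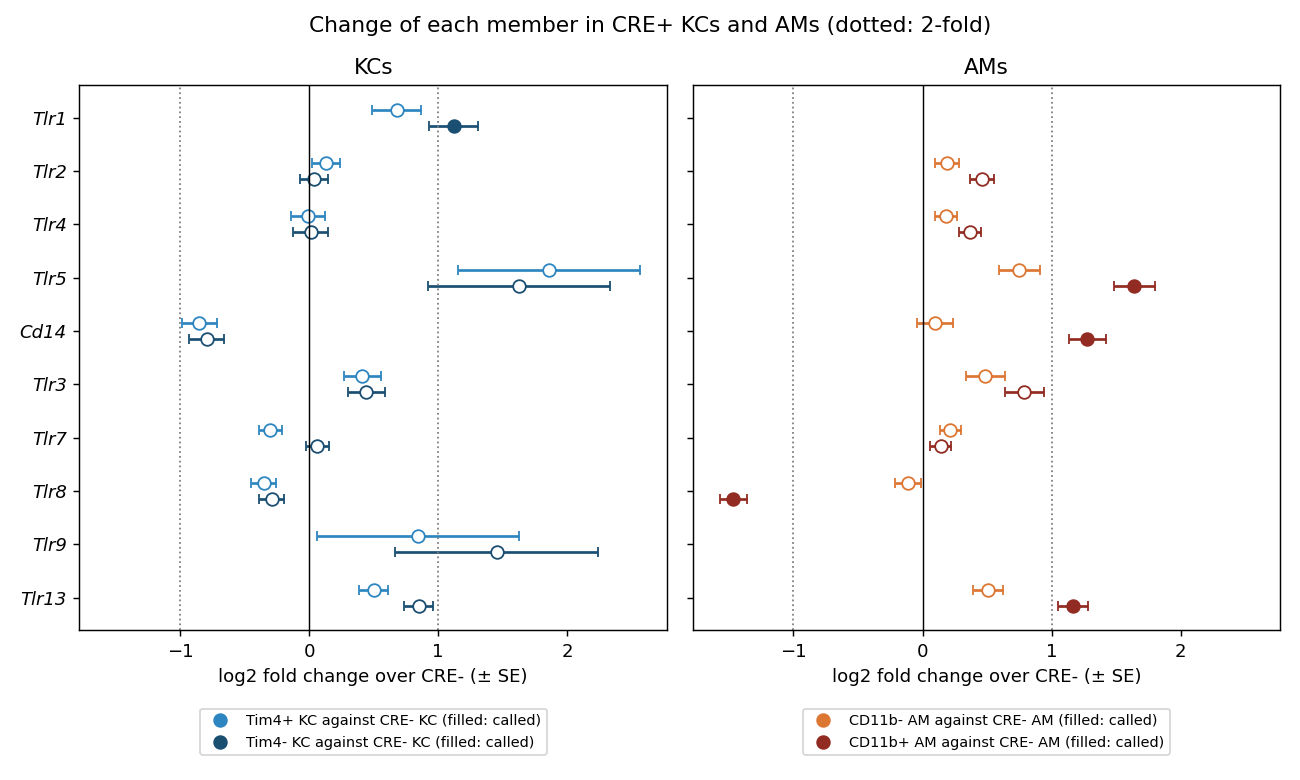
Log2 fold change (± SE) of each member over the CRE- cells of its tissue, KCs on the left and AMs on the right, with filled points for members that passed both limits and dotted lines at 2-fold; *Tlr1* and *Tlr9* were not tested in AMs. *Cd14* lay at -0.85 and -0.79 in KCs and at 1.28 in CD11b+ AMs, and *Tlr8* at -1.47 in CD11b+ AMs.

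Markers of several other cell types moved with the CD11b+ AMs as well. Of the neutrophil list, 10 of 11 genes were in the files, 7 were tested and 7 rose, and the list summed to 54.7 to 74.9 CPM in CRE- AMs, 937 to 2523 in CD11b- and 8002 to 10381 in CD11b+ AMs. *S100a8* and *S100a9* made up most of it, with means of 4464 and 3684 CPM in CD11b+ AMs. *Elane* was at 0 in all AMs and *Camp* averaged 0.783 CPM in CD11b+ AMs. All 6 monocyte markers tested rose, from a sum of 6.03 to 12.6 CPM to one of 90.9 to 295, with *Ly6c2* at 39.2 to 179.8 and *Vcan* at 0. Of the plasmacytoid dendritic cell markers 3 of 4 tested rose, with sums of 1.47 to 3.73 CPM in CRE- and 12.3 to 24.6 in CD11b+ AMs. Of the conventional dendritic cell markers 2 of 6 tested rose, with sums of 5.43 to 7.003 and 10.7 to 19.3 CPM. Of the B cell markers 1 of 4 tested rose, with sums of 8.04 to 14.3 and 62.7 to 88.8 CPM and *Pax5* at 0 in both groups. The part of such cells in the values of *Cd14*, *Tlr5*, *Tlr8*, *Tlr9*, *Tlr13* and *Irf7* was not tested.

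The mean log2 change of both CRE+ KC groups over CRE- KCs, less that of both CRE+ AM groups over CRE- AMs, was tested as well. It used all 33 samples (13294 genes). Tissue, Cre line, sort marker and sex of the samples differ together in this tissue difference and cannot be told apart. *Cd14* passed, with a difference of -1.499 (SE 0.19, adjusted p = 2.81e-07), 1 member of 10 in the lower direction, where 3.5% of all genes tested were higher and 4.65% lower. Its own changes were -0.85 and -0.79 in the KC groups and 0.10 and 1.28 in the AM groups, and both KC changes share the CRE- KC samples and both AM changes the CRE- AM samples. *Tlr8* had a difference of 0.48 (SE 0.13, adjusted p = 0.0056), under the 2-fold limit. *Tlr13* had log2 fold changes of 0.50, 0.85, 0.51 and 1.17 in the 4 groups, with a difference of -0.15 (SE 0.15, adjusted p = 0.543). For *Tlr1* and *Tlr9*, whose AM groups were at or near 0, this difference depends on the small count the method adds and is not given.

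Downstream of the receptors, 23 adaptors, kinases, transcription factors and other signalling genes were followed. In KCs none of the 23 tested passed in either CRE+ group with edgeR, limma-voom or DESeq2 (unadjusted p under 0.05 for 3 in Tim4+ and 7 in Tim4- KCs). Of all genes tested, 1.94% were higher and 0.376% lower in Tim4+ KCs, and 3.43% higher and 5.39% lower in Tim4- KCs. *Myd88* had log2 fold changes of 0.04 (SE 0.09) and 0.31 (SE 0.09), and *Ticam2*, which encodes the adaptor TRAM of TLR4, of -0.65 (SE 0.12) and -0.59 (SE 0.12), with adjusted p-values of 0.000963 and 0.000819. *Tirap* and *Ticam1* had log2 fold changes of 0.43 (SE 0.12) and -0.15 (SE 0.25) in Tim4- KCs.

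In CD11b+ AMs 3 of the 22 genes tested from this list of adaptors, kinases, transcription factors and other signalling genes rose and none fell. This was near the 9.57% higher and 5.68% lower of all genes tested, and the list median was 0.12. *Ikbke*, a kinase that activates interferon regulatory factors, had 1.30 to 4.55 CPM in CRE- AMs, 10.9 to 16.5 in CD11b- and 51.7 to 86.6 in CD11b+ AMs, and rose in both CRE+ groups (log2 fold changes 1.96, SE 0.23, and 4.30, SE 0.24). *Irf7* and *Irf5*, transcription factors that act after the endosomal receptors, rose in CD11b+ AMs by 2.27 (SE 0.19) and 1.22 (SE 0.11). *Irf7* was nonetheless far lower there, at 19.0 to 31.4 CPM, than in CRE- KCs, at 477 to 1067. *Ticam2* was 32.4 to 37.9 CPM against 59.3 to 82.6 in CRE- AMs, a log2 change of -0.97 (SE 0.09, adjusted p = 3.51e-08) just within the limit.

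Of the co-receptors and chaperones, none of the 13 tested passed in Tim4+ or Tim4- KCs with edgeR (4 and 7 with an unadjusted p under 0.05), while limma-voom called 1 in Tim4+ KCs and none in Tim4-, and DESeq2 none. The shares of all genes tested were 1.94% higher and 0.376% lower in Tim4+ KCs, and 3.43% and 5.39% in Tim4- KCs. *Cd36* was 510.2 to 683 CPM in Tim4+ KCs and 195 to 602 in CRE- KCs (log2 fold change 0.99, SE 0.23, adjusted p = 0.00906). In AMs *Ly86* fell in CD11b- cells (-1.16, SE 0.16, adjusted p = 2.33e-05) and *Cd36* rose in CD11b+ cells to 1233 to 1379 CPM from 457 to 565 (1.30, SE 0.07, adjusted p = 1.94e-11). Under the 2-fold limit, *Ly86* had a log2 change of -0.77 (SE 0.16, adjusted p = 0.000578) in CD11b+ AMs. *Cd36* had one of 0.74 (SE 0.07, adjusted p = 3.13e-07) in CD11b- AMs. *Unc93b1* had a log2 change of -0.70 (SE 0.06, adjusted p = 6.61e-09) in CD11b+ AMs, with 349 to 387 CPM, and *Ly96* of 0.09 (SE 0.14).

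Of 17 negative regulators tested, none passed in Tim4+ or Tim4- KCs with edgeR (4 in each with an unadjusted p under 0.05), limma-voom calling 0 and 1 and DESeq2 0 and 0, where 1.94% and 3.43% of all genes tested were higher. In CD11b+ AMs 6 of 17 rose and none fell, where 9.57% of all genes tested were higher and 5.68% lower. Tested gene by gene, the tissue difference passed for 2 of the 17, both in the lower direction, where 4.65% of all genes tested did so. The negative regulators with the most change in CD11b+ AMs over CRE- AMs, at 10 CPM or more, were *Socs1* (2.23, SE 0.42), *Socs3* (1.45, SE 0.23), *Peli1* (1.08, SE 0.10) and *Tnfaip3* (1.06, SE 0.11). The products of *Socs1*, *Socs3* and *Tnfaip3* are brakes on cytokine and NF-kB signalling, and *Peli1* is counted here because the list holds it. Between normal cells, *Tnfaip3* and *Dusp1* were higher in AMs (log2 fold changes of KCs over AMs -2.66, SE 0.16, and -2.77, SE 0.13). The list medians were 0.13 and 0.17 in the KC groups, 0.15 in CD11b- and 0.49 in CD11b+ AMs.

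Of a list of proteases, nucleases and other genes that handle endosomal receptors and their ligands, 11 were tested within each tissue. None passed in either CRE+ KC group against CRE- KCs (5 in each with an unadjusted p under 0.05, and 0 with limma-voom and with DESeq2). The shares of all genes tested were 1.94% higher and 0.376% lower in Tim4+ KCs, and 3.43% and 5.39% in Tim4- KCs. In CD11b+ AMs *Ctsk* (1.21, SE 0.11) and *Lgmn* (1.76, SE 0.07), lysosomal proteases, rose and *Pld4*, a lysosomal exonuclease of single-stranded nucleic acids, fell (-1.29, SE 0.10, adjusted p = 3.81e-09), 2 and 1 of 11 where 9.57% and 5.68% of all genes tested were higher and lower. *Ctsk* also rose in CD11b- AMs (1.39, SE 0.11, adjusted p = 1.17e-08), the 1 of 11 that passed there, where 3.98% of all genes tested were higher. Between CD11b+ and CD11b- AMs its log2 change was -0.17 (SE 0.11, adjusted p = 0.217). *Dnase1l3*, a secreted DNase, was lower in Tim4- than in Tim4+ KCs (-1.38, SE 0.22). In the same comparison 9 of the 10 liver endothelial markers were lower, and the part of such cells in this value was not tested. In normal cells *Dnase1l3* was 56.9 to 139.8 CPM in KCs and at most 0.256 in AMs.

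Genes known to be induced through the receptors were followed as well. Between normal cells, 5 of the 14 tested were higher in CRE- KCs and 8 were higher in CRE- AMs, where the shares of all genes tested were 20.9% and 12.4%. The lower ones included *Cxcl2* (-6.98, SE 0.18), *Ccl3* (-4.50, SE 0.30) and *Tnf* (-3.03, SE 0.29), chemokine and cytokine genes, and the higher ones *Cxcl10* (3.11, SE 0.25), a chemokine gene induced by interferon. Relative to CRE- KCs, *Ccl4* was the 1 of 14 that rose in Tim4+ KCs, 4 rose in Tim4- KCs and none fell in either. Of all genes tested, 1.94% and 3.43% were higher.

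*Ccl4* had 3.11 to 11.2 CPM in CRE- KCs, 9.97 to 25.8 in Tim4+ and 16.3 to 38.4 in Tim4- KCs (log2 fold changes 1.10, SE 0.28, and 1.84, SE 0.28). *Ccl3* (1.63, SE 0.29) and *Ccl5* (1.24, SE 0.32) rose in Tim4- KCs beside *Il10*, a cytokine gene with a mean of 9.02 CPM there. In CD11b+ AMs 8 of 13 tested rose and none fell, where 9.57% of all genes tested were higher, and the list median was 1.21. *Irg1*, the gene of the itaconate-forming enzyme, went from at most 1.69 CPM in CRE- AMs to 6.38 to 14.7 in CD11b- and 39.0 to 79.6 in CD11b+ AMs (log2 fold changes 3.16, SE 0.40, and 5.66, SE 0.41). *Ptgs2* (2.31, SE 0.30), *Ccl2* (1.92, SE 0.26) and *Il1b* (1.65, SE 0.18) also rose in CD11b+ AMs, whereas *Tnf* was 28.3 to 51.0 CPM there and 52.8 to 90.2 in CRE- AMs, without overlap and within the 2-fold limit.

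**Figure D5:**
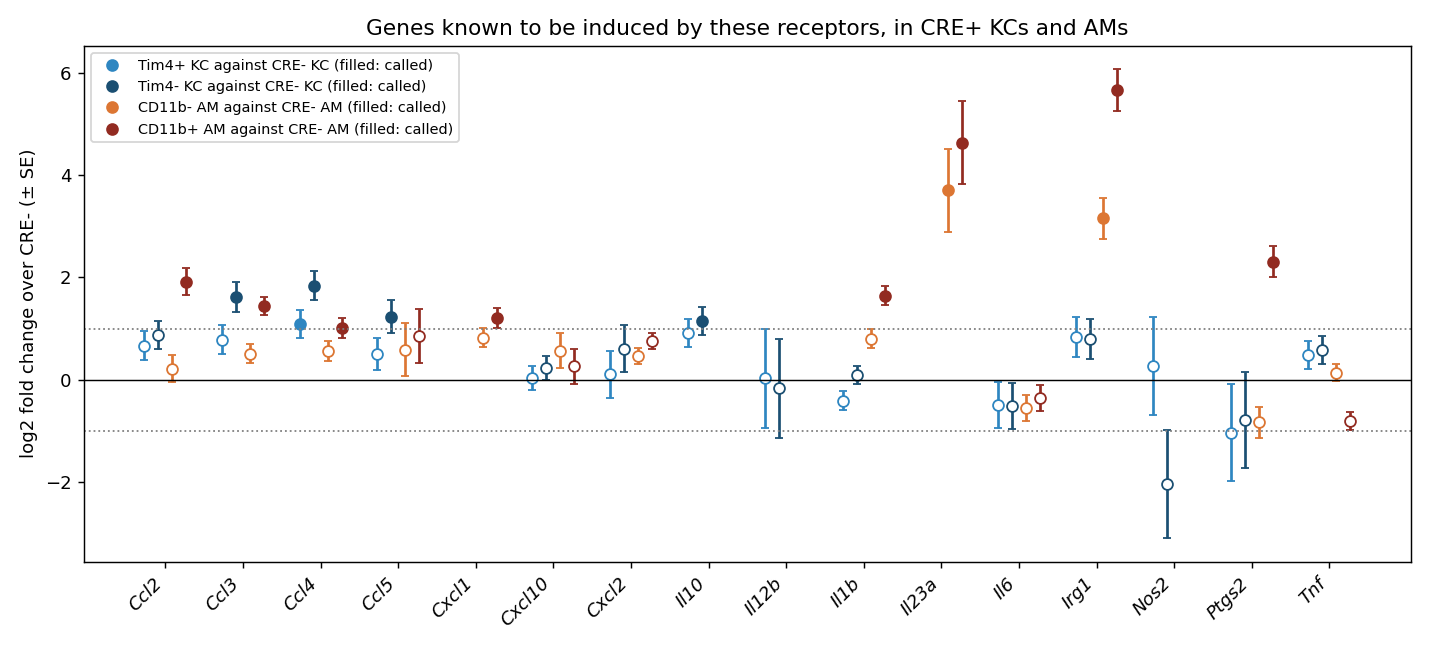
Log2 fold change (± SE) of the tested genes known to be induced through Toll-like receptors, in the 4 CRE+ groups over the CRE- cells of the same tissue, with filled points for genes that passed both limits and dotted lines at 2-fold. *Irg1* lay at 3.16 and 5.66 in the AM groups, and *Ccl4* passed in 3 of the 4 groups.

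The genes whose log2 CPM followed the members most closely over the 33 samples (Pearson's r among 9238 other genes with at least 10 CPM in 1 group, a description of samples that share tissue and group) were *Cd86*, *Ifnar2* and *B3galnt1* for *Tlr1* (r of 0.99), *Myo1e*, *Trim29* and *Anxa4* for *Tlr2* (0.99), *Fcrl1*, *Ckb* and *Itgb7* for *Tlr3* (0.94 to 0.95) and *Gpnmb*, *Plek* and *Ccl3* for *Tlr5* (0.96 to 0.97). *Atp6ap1*, *Cybb* and *Galnt6* were closest to *Cd14* (0.90 to 0.93), and *Aph1c*, *Gpr84* and *Bid* to *Tlr13* (0.86 to 0.88). *Tlr4* and *Tlr7*, the flat members, had no close follower, with *Slc35a5*, *Lysmd3* and *Fam76b* at 0.72 to 0.78 and *Xpo1*, *Tm6sf1* and *Lrrc75a* at 0.53 to 0.63, and *Dbnl*, *H2-Q4* and *Rnf114* stood at 0.82 to 0.84 for the few counts of *Tlr9*. *Ccl3*, of the genes induced through the receptors, was thus among the 3 closest to *Tlr5*, and no member was among the 3 closest to another.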

How the data were processed

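Bulk RNA-seq of 33 samples was used. The authors trimmed reads with Trimmomatic 0.35, checked them with FastQC 0.11.4, aligned them to mm10 with TopHat2 2.1.0 and SAMtools 0.1.18 (versions from the submitters' processing notes), and deposited raw counts of reads per gene made with HTSeq-count, whose version, annotation and strand setting are not given in the sources used here. The 5 tally rows of unassigned reads (5.88 to 10.1% of reads) were left out. Depth limits the precision of low genes, and exact intervals and floors (3 counts over a group) cover counting error only.

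Counts were scaled by TMM and filtered with filterByExpr, then tested with edgeR 4.0.16 (R 4.3.3), by quasi-likelihood, within KCs, within AMs, over both CRE- groups, or over all 33 samples for the tissue difference, with Benjamini-Hochberg adjustment over all genes tested. A call needed an adjusted p under 0.05 and a change of more than 1 on the log2 scale. SEs were approximated from the test statistic. limma-voom (limma 3.58.1) and DESeq2 1.42.0, other scalings and filters, single samples left out and replicate blocks were alternatives. The procedure was tested on simulated counts with 200 genes changed by more than 2-fold. There edgeR recovered 78% of them for Tim4- against CRE- KCs and 87% for CD11b+ against CRE- AMs. It made 5 and 2 false calls, so some changes above the limit were missed.

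Genes named were all members, and from the pathway lists up to 4 a list that passed with the largest changes and a mean of at least 10 CPM, with the receptors' direct partners given in any case. *Dusp1*, *Il10*, the induced genes beyond 4 and the marker genes given singly were chosen after their values were seen. The members and lists were chosen with earlier results of these data known. Replicate numbers pair Tim4- with Tim4+ KCs: same-numbered samples deviated together in all 6 pairs (r of 0.118 to 0.243). Same-numbered CD11b+ and CD11b- AMs had weaker r, 0.0478 to 0.0996 over 5 pairs. Each CD11b+ sample still had its highest r with the CD11b- sample of its own number. The main tests treated the groups of both tissues as unpaired. Of 75 pairs of samples within groups none held identical counts. The genes most like *Tlr8* are not reported here.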

Additional observations from a re-analysis of the deposited data

Results flagged for a closer look

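Within groups, 5 of the 57 combinations of member and group had a sample farther from the rest than Dixon's 95% critical value, where chance gives about 1 in 20. *Tlr1* had 0.185 CPM in CRE- AM replicate 3 and 0 in the other samples of the group. *Tlr7* had 102 CPM in Tim4+ KC replicate 1, below the others at 116 to 123, and 168 CPM in CD11b+ AM replicate 2, above the others at 132 to 142. *Tlr9* had 3.89 CPM in Tim4- KC replicate 4, above the others at 0 to 1.44. *Cd14* had 528 CPM in CRE- KC replicate 4, above the others at 351 to 397. The change of *Cd14* from CRE- to CRE+ cells also differed between KCs and AMs, by a log2 difference of -1.4991 (edgeR interaction term, adjusted p = 2.81e-07). Tissue and Cre line cannot be told apart in it.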

How the results depend on the processing

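No member that passed lost its call in direction or threshold under any alternative that tested it, and no direction reversed; leaving out single samples left every count of members called unchanged. Without a limit on the fold change, members called rose to 7 for CRE- KCs against CRE- AMs, 5 for Tim4+ and 5 for Tim4- KCs against CRE- KCs, 2 for Tim4- against Tim4+ KCs, 3 for CD11b- and 7 for CD11b+ AMs against CRE- AMs, 5 for CD11b+ against CD11b- AMs and 2 for the tissue difference. Requiring 10 counts in every sample left 2 for CRE- KCs against CRE- AMs, since *Tlr1* and *Tlr5* were then not tested. With all 33 samples in the fit, 1 (*Tlr5*) was called in Tim4+ KCs, 2 in Tim4- KCs and 4 for CD11b+ against CD11b- AMs, the last also 4 with no filter on low counts (*Tlr1* and *Tlr9* added). DESeq2 called 2 in Tim4- KCs (*Tlr1*, *Tlr5*). With plain library sizes 5 of 60 group means moved by over 1 SD, all in CD11b+ AMs. Over all genes, the stricter filter and no fold limit gave 2228 and 7680 calls in place of 4045, 187 and 761 in place of 289, 688 and 3169 in place of 1103, 451 and 1433 in place of 681, 394 and 2972 in place of 752, 1114 and 5004 in place of 1765, 672 and 4215 in place of 1175, and 522 and 2597 in place of 1083, in the order of comparisons above. A replicate block changed no count of members called. The paired fit of Tim4- against Tim4+ KCs alone, added after seeing the data, called 0 members and 722 genes. Depth limits *Tlr5* in KCs and *Tlr1* and *Tlr9* in AMs, which rest on few or no counts.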

Other observations

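Among the 18 KC samples, 6 held Y-linked counts, between 2706 and 3663 a sample, and the other 12 at most 4. A sex term added to the KC fit after seeing the data, as the log2 difference of samples with Y-linked counts less those without, was 0.29 for *Tlr4* (SE 0.10, edgeR, adjusted p = 0.163) and -0.34 for *Cd14* (SE 0.10, adjusted p = 0.095), and neither passed. The X-linked members *Tlr7*, *Tlr8* and *Tlr13* had differences of 0.09, 0.13 and 0.09, with adjusted p-values of 0.662, 0.505 and 0.754. Of 12500 genes tested, 127 had an adjusted p under 0.05.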
